A study of Mus musculus with 23 samples.

Results

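The diet comparison in control tubules set 6 libraries from mice on a high potassium diet (CT-HK) against 5 libraries from mice on a normal potassium diet (CT-NK), 11 of the 23 libraries sequenced in the study. Tubules of connecting tubule and collecting duct were microdissected from mouse kidney, and each library profiles their RNA. Every mouse carried Pax8-rtTA, TRE-LC-1 and MRflox/flox: the Pax8 promoter drives a doxycycline-dependent activator in tubule epithelium, TRE-LC-1 holds the Cre that this activator switches on, and the floxed gene is Nr3c2, which encodes the mineralocorticoid receptor. CT-HK and CT-NK mice drank 5% sucrose water with no doxycycline, so the receptor was not deleted by design, and they ate their diets for 4 days. The 12 remaining libraries came from knockout mice, which for 2 weeks drank 5% sucrose water holding doxycycline at 2 mg/ml, had 2 weeks of rest and were then fed a normal (KO-NK, n = 6) or low (KO-LK, n = 6) potassium diet. The labels give neither the potassium content of the diets nor the age of the mice. They number replicates without saying that each came from a separate mouse, so a p-value here is relative to library-to-library spread, which may be partly technical.

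Potassium in the diet is cleared mainly by the connecting tubule and collecting duct. There the epithelial sodium channel draws sodium into principal cells, and the resulting voltage drives potassium out through the channel encoded by Kcnj1 and through flow-activated channels. Aldosterone, whose release a potassium load stimulates, acts through the mineralocorticoid receptor on genes such as Sgk1, a kinase that keeps the sodium channel at the cell surface. Potassium can also act on these cells more directly, for example through chloride-sensitive WNK kinases.

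Stretches of promoter are shown for 4 genes described further on, because each holds a short motif bound by a transcription factor family that bears on the comparison. The letters come from RefSeq promoter windows on GRCm38.p6, found for 97 of 128 genes chosen by the rule for naming genes, and are read 5′ to 3′ on the strand of the gene, and capitals mark the motif. In Sgk1 the capitals are the palindromic corticosteroid response element, AGAACA and TGTTCT with any 3 bases between them. In Klf15 and Cry1 they are the E-box CACGTG, bound by clock factors, and in Dusp1 the cAMP response element TGACGTCA. The Dusp1 stretch also holds CACGTG, which is left in lower case.
Sgk1 (chr10:21993661-21993755, plus strand): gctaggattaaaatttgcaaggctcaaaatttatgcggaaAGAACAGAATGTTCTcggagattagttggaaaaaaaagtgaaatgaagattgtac
Klf15 (chr6:90462326-90462449, plus strand): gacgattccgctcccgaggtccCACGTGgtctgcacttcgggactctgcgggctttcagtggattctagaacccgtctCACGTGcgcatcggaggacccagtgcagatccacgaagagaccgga
Cry1 (chr10:85185069-85185154, minus strand): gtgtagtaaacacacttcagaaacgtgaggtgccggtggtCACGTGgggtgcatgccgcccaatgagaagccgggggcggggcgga
Dusp1 (chr17:26508568-26508655, minus strand): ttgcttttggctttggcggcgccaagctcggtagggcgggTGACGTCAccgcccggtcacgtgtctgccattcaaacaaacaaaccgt
The Sgk1 element begins 189 bases before 1 of the 6 start sites that RefSeq lists for this gene. Searched on both strands over the 250 bases before each start, the full element stood in 3 of 32851 windows (0.00913%), those of Sgk1, Acnat2 and Gm35041. The motif AGAACA, which the element repeats, was in 16.1% of windows, CACGTG in 6.02% and TGACGTCA in 1.55%. TTATGTAA, the D-box, was in 0.819% and the AP-1 motif TGANTCA in 6.75%. The full element contains AGAACA on both strands, so each of its windows also counts for AGAACA. At least 1 window with CACGTG belonged to 5 of the 17 clock genes and 6 of the 19 corticosteroid targets that have windows. A few other lists had similar shares, namely 4 of 10 water channel and vasopressin genes, 3 of 10 cholesterol synthesis genes and 6 of 24 immediate early genes. Most had lower ones, such as 3 of 49 nuclear oxidative phosphorylation genes, 1 of 21 cell cycle genes and 0 of 13 interferon response genes. A gene can have several windows, so these shares of genes cannot be set against the 6.02% of windows. A match describes these letters and is not evidence of binding.

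Libraries held 20344577 to 34154475 estimated counts in CT-HK and 20615077 to 28140420 in CT-NK, with no difference detected (exact permutation test over 462 divisions, two-sided, p = 0.342, smallest possible p 0.00433). Mitochondrial transcripts took 15.6 ± 3.42% of counts in CT-HK and 15.3 ± 3.61% in CT-NK (SD, n = 6 and 5, exact permutation p = 0.868). Markers of the labelled segments were present in every library. The principal cell list summed to 10531 to 17078 CPM in CT-HK (median 12989.9), against 15444, 13851, 13494, 7935 and 8016 CPM in CT-NK. The summed level of the 9 calcium and kallikrein genes of connecting tubule was 19758 to 64091 CPM in CT-HK (median 57007), against 39832, 27949, 28655, 30599 and 29534 CPM in CT-NK. No reference tissue was compared, so these sums do not measure how pure the dissection was. Some libraries stood apart in content. The 25 proximal tubule markers, a segment that dissection is meant to leave out, summed to 437 to 1111 CPM in CT-HK replicates 1 to 5 and to 37952 CPM in CT-HK replicate 6, against 8312, 878, 705, 8898 and 20450.0 CPM in CT-NK. CT-HK replicate 6 and CT-NK replicate 5, the richest of each group, are therefore called the proximal tubule-rich libraries, and values without them are given for the lists and genes that they moved most. CT-NK replicates 1 and 4 were also above all of CT-HK replicates 1 to 5, and they remain in those fits. Values without the 2 libraries thus still compare groups that differ in proximal tubule markers. The median log2 fold change of these markers was -2.63 there, against -0.23 with all libraries. In CT-HK replicate 6 and CT-NK replicates 4 and 5 the proximal tubule sum was above the principal cell sum. Counts on olfactory and vomeronasal receptor genes, which tubules are not known for, were above 2500 CPM in CT-HK replicate 4 and in CT-NK replicates 2 and 4. Because the samples are bulk RNA, fewer cells of a type and less RNA per cell cannot be told apart in any value that follows.

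Across 25829 tested genes, none differed between CT-HK and CT-NK at an adjusted p under 0.05 (0%; edgeR's quasi-likelihood test with Benjamini-Hochberg adjustment), and the smallest adjusted p was 0.233, for Rasl11a. At an unadjusted p under 0.05, 570 genes (2.21% of those tested) had higher and 357 (1.38%) had lower values in CT-HK. Log2 fold changes of CT-HK over CT-NK were above 0 for 49.1% of genes, with a median of -0.0077. In 18 genes (0.0697%) every CT-HK library was above every CT-NK library, and in 14 (0.0542%) every one was below. If the 11 libraries were exchangeable, separation in either direction would have a rate of 0.00433 per gene, the smallest p of the permutation test above. A lack of overlap is thus not by itself evidence of a difference. DESeq2 on the same counts called 20 genes (0.0774%), 7 higher and 13 lower, with 6524 adjusted p-values not given by that tool. Scale matters for small differences shared by many genes: the median log2 fold change of the 11524 genes of at least 5 CPM was 0.076 here, and limma on log2(TPM + 1), which is not rescaled by TMM, put the median of such genes at -0.10 (11474 genes). At an unadjusted p under 0.05 that fit had 213 higher and 1042 lower genes (17.0% higher), against 61.5% higher with edgeR. Among the DESeq2 calls were Rasl11a, Rrad, Nr4a2, Nr4a3, S1pr2, Atp12a, Arntl, Cxcl1, Eif5a2, Fkbp11, Arnt2 and Eif2s3y, which are described below. The calls of smallest p were Gm47025, averaging 4.13 CPM in CT-HK and 0 in CT-NK, and Chtf8, averaging 0 and 2.04 CPM. DESeq2 gave them log2 fold changes of 24.2 and -23.3, while their adjusted p in edgeR was 0.9998. In edgeR each named gene had an adjusted p between 0.233 and 1.00, so the text gives values, log2 fold changes and their 95% intervals, not changes. An interval that excludes 0 reflects an unadjusted p under 0.05 for that gene alone.

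The receptors themselves had nearly equal means. Nr3c2 (ENSMUSG00000031618, GRCm38 chromosome 8, 76899442 to 77245012, plus strand) stood at 70.2 to 145 CPM in CT-HK (median 112), against 120.0, 117, 151, 84.3 and 66.6 CPM in CT-NK. The groups overlapped almost wholly, and the log2 fold change was 0.0034 (95% interval -0.45 to 0.45), which bounds any difference in mean to less than 1.37-fold in either direction. Nr3c1, the glucocorticoid receptor, averaged 28.8 ± 9.76 CPM in CT-HK and 29.1 ± 8.41 CPM in CT-NK (SD, n = 6 and 5), with a log2 fold change of -0.014 (95% interval -0.44 to 0.41). Hsd11b2, whose product inactivates glucocorticoids and so leaves the mineralocorticoid receptor to aldosterone, had a log2 fold change of -0.076 (95% interval -0.58 to 0.43).

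Sgk1 had a higher mean in CT-HK, at 648 to 982 CPM in CT-HK (median 811), against 729, 667, 559, 524 and 562 CPM in CT-NK. Of the 6 CT-HK libraries, 5 were above every CT-NK library, and replicate 6, at 648 CPM, lay below CT-NK replicates 1 and 2. The log2 fold change was 0.42 (95% interval -0.26 to 1.10). The fit shares 1 estimate of spread per gene over all 4 groups, and Sgk1 averaged 129 CPM in KO-NK and 46.1 CPM in KO-LK. None of 33 other settings gave Sgk1 an adjusted p under 0.367. Fkbp5, a co-chaperone of steroid receptors that both corticosteroids induce, stood at 39.2 to 98.0 CPM in CT-HK (median 80.8), against 80.0, 23.4, 32.1, 42.4 and 40.7 CPM in CT-NK. Its CT-HK replicates 1 to 3 were above every CT-NK library, and the log2 fold change was 0.79 (95% interval 0.22 to 1.35). Klf15, a transcription factor induced by glucocorticoids, stood at 73.7 to 128 CPM in CT-HK (median 112), against 90.9, 54.4, 46.7, 48.4 and 89.5 CPM in CT-NK. Values of CT-HK replicates 4 and 5 lay among those of CT-NK, and the log2 fold change was 0.66 (95% interval 0.24 to 1.09). Other targets lay on both sides of 0. Tsc22d3, also called Gilz, averaged 54.1 ± 16.7 CPM in CT-HK and 52.5 ± 17.1 CPM in CT-NK, with a log2 fold change of 0.043 (95% interval -0.39 to 0.48), and Per1, a clock gene that aldosterone induces in collecting duct cells, had one of -0.31 (95% interval -0.88 to 0.25). Dusp1, a phosphatase of MAP kinases, stood at 33.6 to 136 CPM in CT-HK (median 76.7), against 136, 132, 275, 88.0 and 100.2 CPM in CT-NK, with CT-NK replicate 3 far above the rest and a log2 fold change of -0.83 (95% interval -1.44 to -0.22). Cdkn1a, the cell cycle inhibitor p21, stood at 11.4 to 21.2 CPM in CT-HK (median 15.8), against 18.9, 23.2, 39.99, 32.6 and 18.5 CPM in CT-NK. Its CT-HK values were tighter and mostly below those of CT-NK, and the log2 fold change was -0.75 (95% interval -1.12 to -0.38). Over the 25 corticosteroid targets, 9 had values above 0 and 16 below, with a median log2 fold change of -0.076 against -0.0077 over all genes. An unadjusted p under 0.05 was reached by 2 higher members, Klf15 and Fkbp5, and by 3 lower ones, Dusp1, Cdkn1a and the inflammatory transcription factor Cebpd. With sample weights (limma voom) the median of this list was 0.15.

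The 3 subunits of the epithelial sodium channel showed small differences. Scnn1a, the alpha subunit, stood at 213 to 575 CPM in CT-HK (median 339), against 349, 287, 479.6, 333 and 163 CPM in CT-NK. The groups overlapped almost wholly, and the log2 fold change was 0.16 (95% interval -0.38 to 0.70). The beta subunit, Scnn1b, averaged 1156 ± 302 CPM in CT-HK and 1067 ± 353 CPM in CT-NK, with a log2 fold change of 0.12 (95% interval -0.36 to 0.59). Scnn1g, the gamma subunit, stood at 778 to 1458 CPM in CT-HK (median 1228), against 1364, 717, 1021, 681 and 763 CPM in CT-NK. CT-NK replicate 1 was as high as the upper CT-HK libraries and the other 4 CT-NK libraries were lower, and the log2 fold change was 0.37 (95% interval -0.063 to 0.81). Per transcript length, Scnn1a was at 37.3 to 106 TPM in CT-HK, against 61.4, 79.4, 110.0, 95.6 and 32.7 TPM in CT-NK, and Scnn1b at 201 to 405 TPM in CT-HK, against 367, 450.0, 434, 273 and 186 TPM in CT-NK. In each of the 11 libraries the alpha subunit was thus below the beta subunit on the TPM scale. Nedd4l, the ubiquitin ligase that removes the channel from the surface and is itself inhibited by Sgk1, averaged 209 ± 23.6 CPM in CT-HK and 223 ± 68.9 CPM in CT-NK, with a log2 fold change of -0.088 (95% interval -0.46 to 0.29). Its relative Nedd4 had one of 0.31 (95% interval -0.020 to 0.63). The kinase complex mTORC2 activates Sgk1. Its core subunits Rictor and Mlst8 had log2 fold changes of 0.26 (95% interval -0.074 to 0.60) and 0.43 (95% interval 0.052 to 0.81). Prr5l, an alternative subunit of the same complex, stood at 13.5 to 18.5 CPM in CT-HK (median 15.5), against 22.0, 21.6, 25.4, 14.2 and 23.9 CPM in CT-NK. Apart from CT-NK replicate 4, each CT-NK library was above every CT-HK library, and the log2 fold change was -0.44 (95% interval -0.80 to -0.082). Among all 21 genes of the channel and its regulators, 15 were above 0 and 6 below, with a median log2 fold change of 0.16 that turned to -0.039 with limma on log2(TPM + 1), and 1 in each direction, Mlst8 and Prr5l, had an unadjusted p under 0.05.

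**Figure D1:**
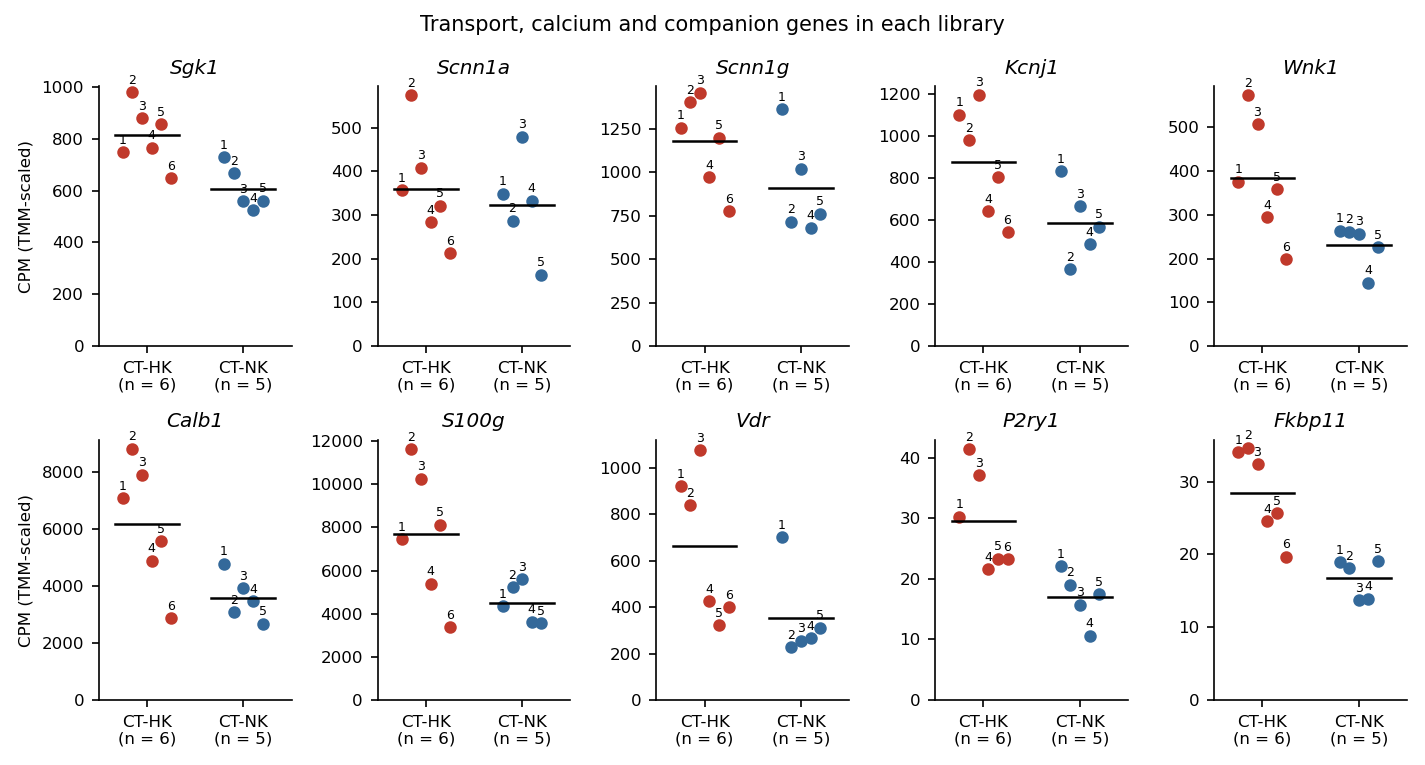
CPM of 10 genes in each library, with CT-HK (n = 6, red) left of CT-NK (n = 5, blue). Numbers are replicate numbers and lines are group means; each axis starts at 0. Fkbp11 is the 1 gene of the 10 whose groups do not overlap in CPM, and CT-HK replicate 6 is the lowest CT-HK library for 8 of them.

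Of the potassium channels, Kcnj1, the secretory channel ROMK, had the clearest difference in mean, at 541 to 1197 CPM in CT-HK (median 893), against 833, 367, 666, 486 and 569 CPM in CT-NK. CT-HK replicates 1 to 3 exceeded all CT-NK libraries and replicates 4 to 6 lay within their range. Its log2 fold change was 0.59 (95% interval 0.11 to 1.06), with an unadjusted p of 0.0173 and an adjusted p of 1.00 in edgeR. Kcnj1 is also on the list of thick ascending limb markers, of which 9 of 10 were above 0 (median 0.58). The part of that segment in the Kcnj1 values was not tested. Kcnma1, the pore of the flow-activated BK channel, was near the limit of detection, at 0.248 to 5.25 CPM in CT-HK (median 1.28), against 0.696, 2.15, 0.560, 3.29 and 2.48 CPM in CT-NK. No direction can be read from its log2 fold change of -0.10 (95% interval -1.66 to 1.46). Kcnj10 and Kcnj16, which form the basolateral channel that senses plasma potassium in the distal convoluted tubule, had log2 fold changes of 0.058 (95% interval -0.33 to 0.44) and 0.24 (95% interval -0.12 to 0.61). Of 20 potassium channel genes, 18 were tested, with 6 above 0, 12 below and a median log2 fold change of -0.11. Kcnj1 was the 1 higher member with an unadjusted p under 0.05, and the accessory subunit Kcne3, at under 1 CPM in 10 of the 11 libraries, the 1 lower.

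Among the pumps, Atp1b1, the beta subunit of the sodium-potassium pump, had a log2 fold change of 0.14 (95% interval -0.24 to 0.52). Fxyd2, the gamma subunit of the same pump, had one of 0.27 (95% interval -0.23 to 0.77). Fxyd4, also called CHIF, a regulator that raises the pump's affinity for sodium in collecting duct, stood at 101 to 213 CPM in CT-HK (median 123), against 171, 375, 431, 108 and 121 CPM in CT-NK. CT-NK replicates 2 and 3 set its higher mean and the other 3 CT-NK libraries lay within the CT-HK range, for a log2 fold change of -0.85 (95% interval -1.47 to -0.22). The SD of Fxyd4 was 39.5 CPM in CT-HK and 151 in CT-NK, beside 91.8 in KO-NK and 38.8 in KO-LK, and the interval draws on all 4. Atp12a encodes the colonic proton-potassium pump, which recovers potassium and is known to be induced in collecting duct when potassium is short. It stood at 0.435 to 2.52 CPM in CT-HK (median 1.46), against 4.09, 2.61, 10.4, 7.81 and 2.13 CPM in CT-NK, so the lowest CT-NK value lay below the highest CT-HK value and 4 CT-NK libraries were above all of CT-HK. The log2 fold change was -1.89 (95% interval -2.76 to -1.02), the largest in size of the pump genes, with an adjusted p of 0.497 in edgeR and of 0.00816 in DESeq2. Over the 10 pump genes, 4 were above 0 and 6 below, with a median log2 fold change of -0.032 that changed sign in 17 of 33 other settings, among them 0.11 without the 2 proximal tubule-rich libraries and 0.24 with sample weights.

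Of the 4 WNK kinases, which set the balance between sodium chloride reabsorption and potassium secretion, Wnk1 and Wnk4 had higher means in CT-HK, while Wnk2 and Wnk3 had log2 fold changes of -0.31 (SE 0.84) and -0.60 (SE 0.53). Wnk1 stood at 198 to 573 CPM in CT-HK (median 367), against 264, 262, 257, 144 and 227 CPM in CT-NK. All CT-HK libraries except replicate 6 were above every CT-NK library, and the log2 fold change was 0.74 (95% interval 0.13 to 1.34). Wnk4 stood at 129 to 321 CPM in CT-HK (median 209), against 257, 95.9, 101, 82.4 and 113 CPM in CT-NK. CT-NK replicate 1 was at the level of the upper CT-HK libraries, far from the other 4, and the log2 fold change was 0.73 (95% interval 0.15 to 1.31), against 0.19 with limma on log2(TPM + 1). Klhl3, the adaptor that hands WNK kinases to the ubiquitin ligase Cul3, had one of 0.50 (95% interval 0.0049 to 0.99), and Cab39l, a cofactor of the downstream kinase SPAK, had one of 0.28 (95% interval -0.10 to 0.66). These 3, Wnk1, Wnk4 and Klhl3, were the members of the 16-gene pathway with an unadjusted p under 0.05; 10 members were above 0 and 6 below, with a median log2 fold change of 0.15. Slc12a3, the thiazide-sensitive cotransporter that the pathway controls in the neighbouring distal convoluted tubule, stood at 6.33 to 334 CPM in CT-HK (median 129.9), against 9.28, 6.88, 5.84, 29.6 and 601 CPM in CT-NK. It varied widely within each group, with CT-NK replicate 5 the highest of all 11 libraries, so its log2 fold change of 0.13 (95% interval -2.55 to 2.82) carries no direction; without the 2 proximal tubule-rich libraries it was 3.03, with an adjusted p of 0.897 in edgeR. Wnk4, Klhl3 and Slc12a3 are also markers of distal convoluted tubule, whose 10 markers summed to 569 to 1143 CPM in CT-HK (median 809.7), against 695, 355, 386, 322 and 1054 CPM in CT-NK; 8 of the 10 were above 0, 5 of them at an unadjusted p under 0.05, with a median log2 fold change of 0.35. Without the 2 proximal tubule-rich libraries 9 of the 10 were above 0 and the median was 0.76. The part of that segment in the WNK values was not tested.

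**Figure D2:**
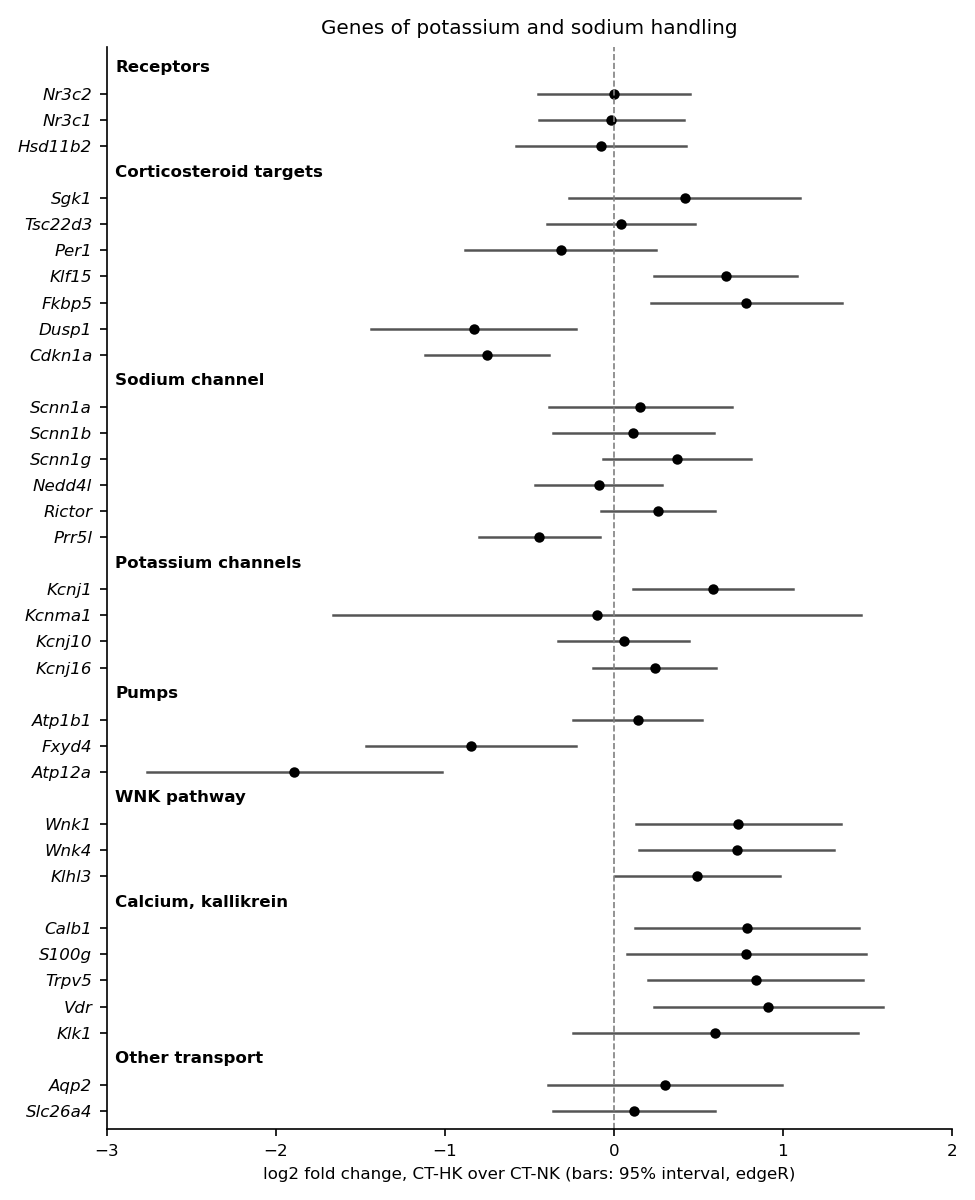
Log2 fold change of CT-HK over CT-NK for genes of potassium and sodium handling, with the 95% interval from the edgeR fit as a bar and 0 as a dashed line. Among others, intervals of Kcnj1, Wnk1, Wnk4, Calb1, S100g, Trpv5 and Vdr lie above 0 and those of Prr5l, Fxyd4 and Atp12a below 0, before adjustment over genes.

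The genes of calcium reabsorption and kallikrein, which mark the connecting tubule, shared a direction: 9 of 9 had a log2 fold change above 0, with a median of 0.60, where 49.1% of all genes were above 0; on the log2(TPM + 1) scale 7 of 9 were above 0, with a median of 0.51. An unadjusted p under 0.05 was reached by Calb1, S100g, Trpv5 and Vdr. Calb1, the calcium-binding protein calbindin-D28k, stood at 2866 to 8807 CPM in CT-HK (median 6319.8), against 4773, 3072, 3909.8, 3462 and 2681 CPM in CT-NK. CT-HK replicates 1 to 5 were all above the highest CT-NK library and replicate 6 was near the lowest, and the log2 fold change was 0.79 (95% interval 0.13 to 1.45). S100g, calbindin-D9k, stood at 3381 to 11636 CPM in CT-HK (median 7791), against 4353, 5215, 5611, 3629.7 and 3560.1 CPM in CT-NK. Replicates 1, 2, 3 and 5 of CT-HK were above all of CT-NK, and the log2 fold change was 0.79 (95% interval 0.080 to 1.49). Trpv5, the apical calcium channel, stood at 143 to 398 CPM in CT-HK (median 265), against 282, 105, 123, 112 and 117 CPM in CT-NK. CT-NK replicate 1 was apart from the other 4 CT-NK libraries, which were all below every CT-HK library, and the log2 fold change was 0.84 (95% interval 0.21 to 1.47). Vdr, the vitamin D receptor, whose ligand induces both calbindins and Trpv5, showed the same arrangement, at 322 to 1078 CPM in CT-HK (median 632), against 701, 228, 255, 265 and 312 CPM in CT-NK. Its log2 fold change was 0.91 (95% interval 0.24 to 1.59). Klk1, the kallikrein that connecting tubule secretes and that potassium intake is known to release, stood at 12529 to 47191 CPM in CT-HK (median 37854), against 28795, 18570.0, 17995, 22626 and 22518 CPM in CT-NK. CT-HK replicate 6 was the lowest of all 11 libraries and 4 CT-HK libraries were the highest, for a log2 fold change of 0.60 (95% interval -0.24 to 1.45). On the TPM scale Klk1 was at 10413 to 42496 TPM in CT-HK, against 24106, 24319, 18733, 27175 and 21323 TPM in CT-NK, and S100g at 7812 to 27022 TPM in CT-HK, against 10102, 19130.0, 16186, 11961 and 9355 TPM in CT-NK. The summed CPM of the 9 genes was 19758 to 64091 CPM in CT-HK (median 57007), against 39832, 27949, 28655, 30599 and 29534 CPM in CT-NK. Without the 2 proximal tubule-rich libraries all 9 stayed above 0, with a median log2 fold change of 0.78. The list has no independent standing as evidence, since it was chosen with earlier results of these data known, and whether the dissected tubules held more connecting tubule and less collecting duct in CT-HK cannot be told apart from more RNA per cell. Distal convoluted tubule markers also had 8 of 10 members above 0 (median 0.35), and the part of that segment in these values was not tested.

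Water handling and acid-base genes showed no common direction. Aqp2, the vasopressin-regulated water channel of principal cells, stood at 2980.0 to 4559 CPM in CT-HK (median 3807), against 3893, 4531, 3059, 1705 and 2026 CPM in CT-NK, with a log2 fold change of 0.30 (95% interval -0.39 to 1.00). CT-NK replicates 4 and 5 were its lowest libraries. Avpr1a, a vasopressin receptor of intercalated cells, had a log2 fold change of -0.28 (95% interval -0.71 to 0.15). The 12 genes of water channels and vasopressin signalling divided into 6 above and 6 below 0, with a median of -0.048, and the 18 principal cell markers into 12 and 6, with a median of 0.11 that turned to -0.078 with limma on log2(TPM + 1). Of the markers of alpha intercalated cells, which secrete acid, 5 of 12 were above 0 (median log2 fold change -0.10, and 0.31 with sample weights). Their transcription factor Dmrt2 had a log2 fold change of -0.41 (95% interval -0.95 to 0.13), the water channel Aqp6 one of -0.41 (95% interval -1.08 to 0.25) and the ammonia transporter Rhbg one of -0.15 (95% interval -0.68 to 0.37). Of the beta and non-alpha markers 3 of 12 were above 0 (median -0.13, and 0.22 with sample weights). Slc26a4, the chloride-bicarbonate exchanger pendrin, averaged 1406 ± 294 CPM in CT-HK and 1295 ± 567 CPM in CT-NK, with a log2 fold change of 0.12 (95% interval -0.36 to 0.60). Slc4a8, a sodium-driven partner of pendrin, had one of 0.31 (95% interval -0.070 to 0.70), Parm1 one of -0.27 (95% interval -0.72 to 0.17) and Nupr1, a stress-induced factor, one of -1.04 (95% interval -2.09 to 0.0083). The vacuolar proton pump and carbonic anhydrase genes had 13 of 19 members above 0, with a median of 0.13 that turned to -0.12 with limma on log2(TPM + 1). Atp6v1c1, a subunit of that pump, had a log2 fold change of 0.36 (95% interval 0.027 to 0.69) and was the 1 member with an unadjusted p under 0.05. Atp6v1b1, the subunit particular to intercalated cells in the kidney, had one of 0.62 (95% interval -0.029 to 1.26).

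Local signals that act on principal cells were led by P2ry1, a receptor for ADP, at 21.6 to 41.4 CPM in CT-HK (median 26.8), against 22.1, 19.02, 15.7, 10.6 and 17.5 CPM in CT-NK. Only CT-NK replicate 1 reached into the CT-HK range, and there it was above 1 CT-HK library. The log2 fold change was 0.79 (95% interval 0.33 to 1.26), with an unadjusted p of 0.00170 and an adjusted p of 1.00 in edgeR. Edn1, endothelin-1, which inhibits the sodium channel, was low in all libraries, at 1.12 to 2.35 CPM in CT-HK (median 1.70), against 1.02, 0.953, 3.52, 2.88 and 2.58 CPM in CT-NK, with a log2 fold change of -0.32 (95% interval -0.98 to 0.34). Pla2g4a, which frees arachidonic acid, and Ptges, which makes prostaglandin E from it, had log2 fold changes of 0.41 (95% interval -0.044 to 0.87) and 0.37 (95% interval -0.17 to 0.91). The list of endothelin, prostaglandin and purine signalling divided evenly, with 11 of 22 members above 0. Gchfr, a regulator of tetrahydrobiopterin synthesis, averaged 39.9 ± 10.8 CPM in CT-HK and 38.8 ± 9.78 CPM in CT-NK, with a log2 fold change of 0.042 (95% interval -0.44 to 0.52).

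Clock genes had 11 of 20 members above 0 and a median log2 fold change of 0.25, with 4 higher and 1 lower at an unadjusted p under 0.05. The lower one was Arntl, also called Bmal1, the activator of the clock. It stood at 0.951 to 2.82 CPM in CT-HK (median 2.19), against 2.60, 3.10, 10.8, 14.3 and 1.93 CPM in CT-NK, so CT-NK replicates 3 and 4 were far above all other libraries and CT-NK replicates 1 and 5 lay among those of CT-HK. Its log2 fold change was -1.71 (95% interval -2.58 to -0.83), with an adjusted p of 0.711 in edgeR and of 0.0478 in DESeq2. Cry1, a repressor of the clock, stood at 8.89 to 23.1 CPM in CT-HK (median 14.7), against 12.7, 9.80, 7.56, 5.80 and 7.09 CPM in CT-NK. CT-HK replicate 5 lay below CT-NK replicates 1 and 2, CT-HK replicate 6 lay just below CT-NK replicate 1, and the other 4 CT-HK libraries were above all of CT-NK. The log2 fold change was 0.90 (95% interval 0.41 to 1.40). Nr1d2, a receptor that binds the Arntl promoter, had one of 0.47 (95% interval 0.058 to 0.88). The labels give no time of day for the dissections, so time of day and diet cannot be told apart in these genes.

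**Figure D3:**
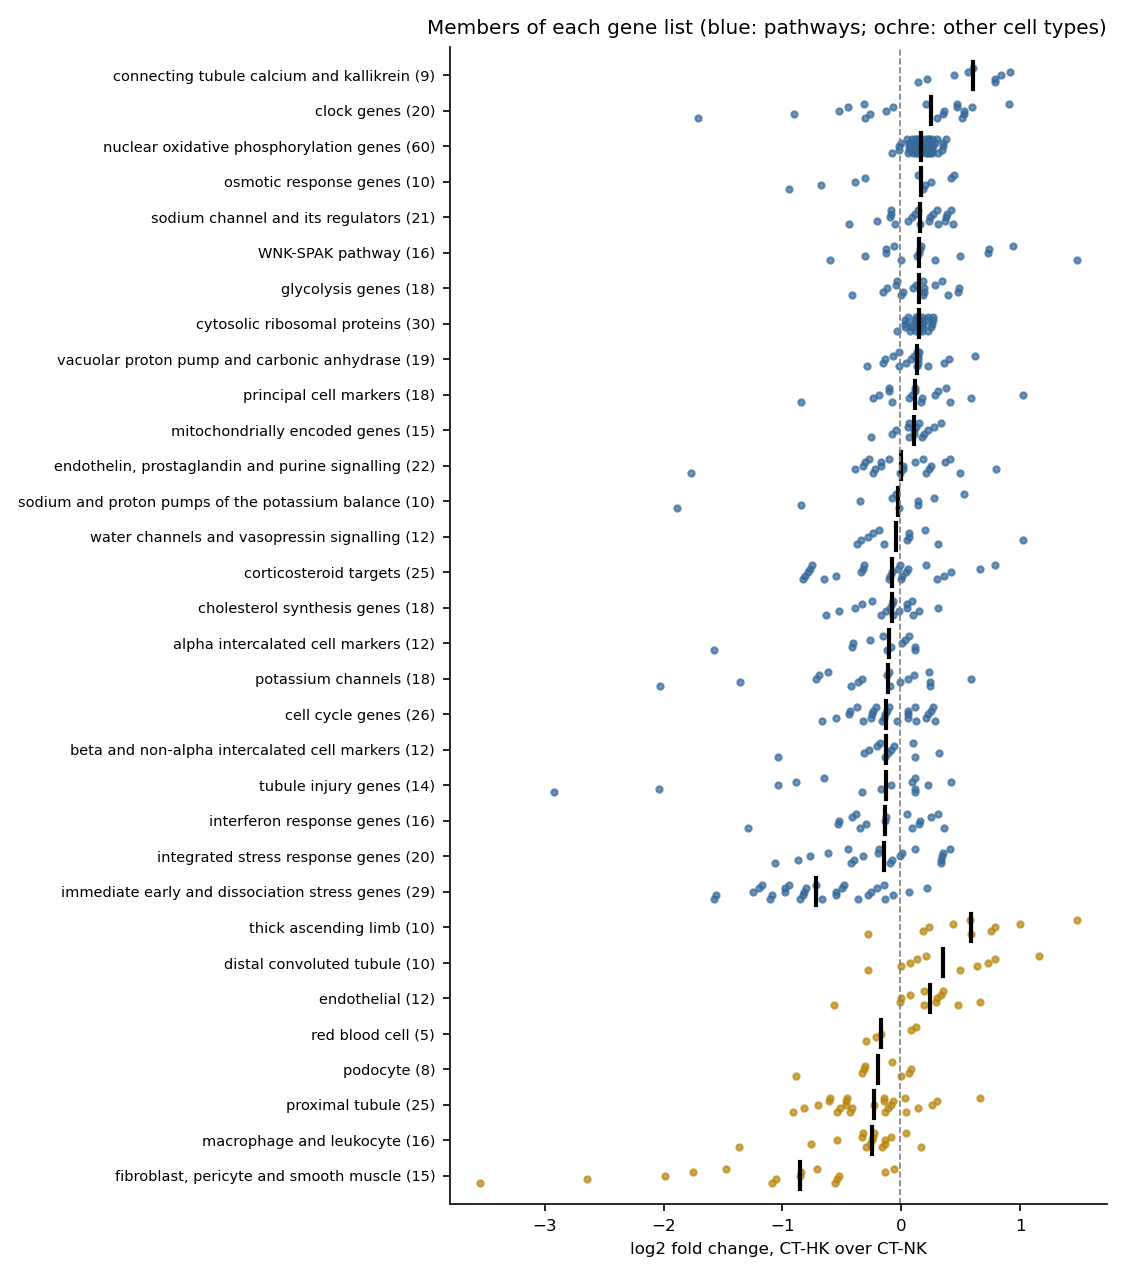
Log2 fold change of CT-HK over CT-NK for every tested member of the 24 pathway lists (blue) and 8 lists of other cell types (ochre), with the number tested in brackets, black bars at medians and a dashed line at the median of all genes, -0.0077. Connecting tubule genes lie highest among pathway lists, at 0.60, and immediate early genes lowest, at -0.72.

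Immediate early genes, which a cell induces within minutes of a stimulus or of tissue handling, had lower means in CT-HK. Of 30 genes 29 were tested, and 27 of them had a log2 fold change below 0, with a median of -0.72, where 49.1% of all genes were above 0. At an unadjusted p under 0.05 there were 12 lower and 0 higher members, where 1.38% of all tested genes were lower and 2.21% higher. With sample weights (limma voom) this direction was lost, with 14 of 29 below 0 and a median of 0.011, while the other 32 settings kept the median below 0. Their summed level was 2049 to 7923 CPM in CT-HK (median 4249.7), against 9213, 8098, 8232, 4629 and 1986 CPM in CT-NK. The groups overlapped widely: CT-HK replicate 1 was close to CT-NK replicates 1 to 3, and CT-NK replicate 5 was as low as CT-HK replicate 5. Fosl2, a subunit of AP-1, stood at 2.61 to 8.05 CPM in CT-HK (median 5.52), against 6.13, 18.1, 34.5, 17.6 and 3.57 CPM in CT-NK. CT-NK replicates 2, 3 and 4 were above all CT-HK libraries while replicates 1 and 5 were among them, and the log2 fold change was -1.56 (95% interval -2.43 to -0.69). Klf6 and Gadd45b, an early transcription factor and a stress sensor, had log2 fold changes of -0.85 (95% interval -1.48 to -0.22) and -1.25 (95% interval -2.28 to -0.22). Hspa1b, a heat shock protein induced by handling, stood at 96.5 to 313 CPM in CT-HK (median 159), against 298, 196, 561, 682 and 94.1 CPM in CT-NK, with a log2 fold change of -0.94 (95% interval -1.72 to -0.16). Of the further genes in this paragraph, Nr4a2, Nr4a3 and Nfkbia were chosen after their values were seen. Nr4a2 and Nr4a3, orphan nuclear receptors, averaged 1.71 ± 0.582 CPM in CT-HK and 15.9 ± 21.9 CPM in CT-NK and 0.845 ± 0.566 CPM in CT-HK and 6.95 ± 7.89 CPM in CT-NK, and CT-NK replicate 3 alone held 53.1 and 18.3 CPM of them. Nfkbia, the inhibitor of NF-kappaB, stood at 57.0 to 90.1 CPM in CT-HK (median 72.0), against 112, 145, 486, 161 and 78.9 CPM in CT-NK, with a log2 fold change of -1.45 (95% interval -2.27 to -0.64). Irf1, an interferon-responsive transcription factor and the 1 of 16 interferon response genes with an unadjusted p under 0.05, stood at 17.0 to 30.7 CPM in CT-HK (median 26.6), against 58.5, 64.5, 113, 44.6 and 29.0 CPM in CT-NK, for a log2 fold change of -1.29 (95% interval -2.12 to -0.47), and Cxcl1, a chemokine, averaged 0.341 ± 0.313 CPM in CT-HK and 2.61 ± 2.32 CPM in CT-NK. In the integrated stress response, 13 of 20 genes were below 0 (median -0.14), 4 of them at an unadjusted p under 0.05. Atf4, its central transcription factor, stood at 39.7 to 65.5 CPM in CT-HK (median 51.1), against 62.5, 118, 115, 54.4 and 46.6 CPM in CT-NK, and only CT-NK replicates 2 and 3 were above all CT-HK libraries. The log2 fold changes were -0.61 (95% interval -1.05 to -0.18) for Atf4, -1.06 (95% interval -1.96 to -0.17) for its target Trib3 and -0.40 (95% interval -0.76 to -0.041) for the amino acid transporter subunit Slc3a2. Slc38a2, an amino acid transporter of the osmotic response, had one of -0.68 (95% interval -1.19 to -0.16). How long each tubule was held before lysis is not in the labels, so handling and diet cannot be told apart here.

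Genes of energy supply and protein synthesis had small log2 fold changes above 0, whose direction depended on the scale. Of 60 nuclear genes of oxidative phosphorylation, 56 were above 0, with a median log2 fold change of 0.17, but with limma on log2(TPM + 1) 25 were above 0 and the median was -0.022. Only Ndufb7 had an unadjusted p under 0.05. Ndufb7, a subunit of complex I, averaged 212 ± 45.0 CPM in CT-HK and 164 ± 26.3 CPM in CT-NK, and the core subunit Ndufs1 458 ± 55.0 CPM in CT-HK and 359.7 ± 100.04 CPM in CT-NK. Of 15 mitochondrially encoded genes 12 were above 0 (median 0.11, turning to -0.038 with limma on log2(TPM + 1)), and mt-Co3, a subunit of cytochrome oxidase, had a log2 fold change of 0.33 (95% interval -0.43 to 1.09). Cytosolic ribosomal proteins had 29 of 30 members above 0 with a median of 0.14, against 6 of 30 and -0.057 with limma on log2(TPM + 1), and Rpl7 had a log2 fold change of 0.26 (95% interval -0.083 to 0.61). Glycolysis genes had 13 of 18 above 0 (median 0.15, turning to -0.059 on the log2(TPM + 1) scale), among them the muscle-type phosphofructokinase Pfkm at 0.48 (95% interval 0.0053 to 0.96). Members of such lists rise and fall together from library to library, so their number does not add replicates: the oxidative phosphorylation level was lowest in CT-HK replicate 4 and CT-NK replicate 4, and the 2 groups overlapped.

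The genes described next were chosen after their values were seen, from those of small unadjusted p. They are not a full ranking. Rasl11a, a small GTPase related to Ras, stood at 1.46 to 7.44 CPM in CT-HK (median 1.72), against 6.73, 11.7, 24.8, 11.9 and 11.95 CPM in CT-NK. Only CT-HK replicate 6 reached above the lowest CT-NK library, replicate 1, and the log2 fold change was -2.25 (95% interval -3.07 to -1.42), with an adjusted p of 0.233 in edgeR and of 5.19e-05 in DESeq2. Without the 2 proximal tubule-rich libraries it passed in edgeR, at -2.87 with an adjusted p of 0.00166. Rrad, a Ras-related GTPase that inhibits calcium channels, stood at 11.04 to 28.3 CPM in CT-HK (median 21.7), against 60.6, 83.9, 156, 66.9 and 13.2 CPM in CT-NK. CT-NK replicate 5 lay within the CT-HK range and the other 4 CT-NK libraries were above all of CT-HK, for a log2 fold change of -1.90 (95% interval -2.73 to -1.08), with an adjusted p of 0.497 in edgeR and of 0.00215 in DESeq2; without the 2 proximal tubule-rich libraries it was -2.19 with an adjusted p of 0.0328 in edgeR. S1pr2, a receptor for sphingosine-1-phosphate, stood at 1.99 to 3.73 CPM in CT-HK (median 2.24), against 4.27, 4.30, 7.04, 4.06 and 5.46 CPM in CT-NK. On the CPM scale every CT-HK library was below every CT-NK library, while in TPM CT-HK replicates 2 and 4, at 0.462 and 0.598 TPM, were above CT-NK replicate 1, at 0.437 TPM, and the log2 fold change was -1.03 (95% interval -1.48 to -0.58), with an adjusted p of 0.497 in edgeR and of 0.00816 in DESeq2. Stc1, stanniocalcin, a hormone of calcium and phosphate balance, stood at 28.5 to 69.6 CPM in CT-HK (median 38.6), against 69.3, 73.5, 155, 155 and 48.3 CPM in CT-NK, with a log2 fold change of -1.24 (95% interval -1.90 to -0.57). Gdf15, a stress-induced secreted factor known in mouse for its part in the collecting duct response to low potassium, stood at 24.7 to 266 CPM in CT-HK (median 83.9), against 365, 800.2, 453, 271 and 27.8 CPM in CT-NK. It varied widely in each group, and CT-NK replicate 5 was as low as the lowest CT-HK library, so the log2 fold change of -1.92 (95% interval -3.03 to -0.81) has a wide interval. Ankrd10, an ankyrin repeat protein, averaged 48.7 ± 7.06 CPM in CT-HK and 67.0 ± 12.9 CPM in CT-NK, with a log2 fold change of -0.46 (95% interval -0.76 to -0.17). It was the 1 gene called when genes had to reach 5 CPM in 5 libraries.

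On the higher side, Eif5a2, a translation factor, stood at 8.42 to 16.2 CPM in CT-HK (median 13.4), against 9.66, 4.92, 4.48, 4.29 and 6.70 CPM in CT-NK, with 1 CT-HK library, replicate 6, below the highest CT-NK library and a log2 fold change of 1.11 (95% interval 0.59 to 1.62). Fkbp11, a prolyl isomerase of the secretory pathway, stood at 19.7 to 34.7 CPM in CT-HK (median 29.0), against 18.9, 18.1, 13.8, 13.9 and 19.04 CPM in CT-NK. The groups did not overlap in CPM, with CT-HK replicate 6 at 19.7 CPM just above CT-NK replicate 5 at 19.04 CPM, and the log2 fold change was 0.77 (95% interval 0.39 to 1.14). They overlapped in TPM, at 21.8 to 42.5 TPM in CT-HK, against 21.8, 29.1, 19.2, 20.2 and 24.2 TPM in CT-NK. Arnt2, a partner of basic helix-loop-helix transcription factors, stood at 10.8 to 21.7 CPM in CT-HK (median 16.7), against 10.7, 5.69, 6.48, 9.45 and 9.17 CPM in CT-NK, again without overlap in CPM, for a log2 fold change of 1.01 (95% interval 0.50 to 1.52). In TPM it overlapped, at 1.57 to 8.75 TPM in CT-HK, against 2.05, 2.90, 3.43, 4.00 and 1.86 TPM in CT-NK, and limma on log2(TPM + 1) gave a log2 fold change of 0.065. Eif2s3y, a translation factor gene on the Y chromosome, stood at 42.4 to 61.3 CPM in CT-HK (median 55.0), against 25.4, 26.3, 30.3, 30.4 and 41.5 CPM in CT-NK. It had no overlap in CPM or in TPM, and its log2 fold change was 0.80 (95% interval 0.47 to 1.13), with an adjusted p of 0.469 in edgeR and of 0.00602 in DESeq2. Its X chromosome copy is similar in sequence, so the division of reads between them is uncertain. Sgms2, a sphingomyelin synthase that also marks distal convoluted tubule, stood at 99.3 to 358 CPM in CT-HK (median 242), against 198, 100.2, 78.4, 58.0 and 96.4 CPM in CT-NK, with a log2 fold change of 1.16 (95% interval 0.51 to 1.81).

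**Figure D4:**
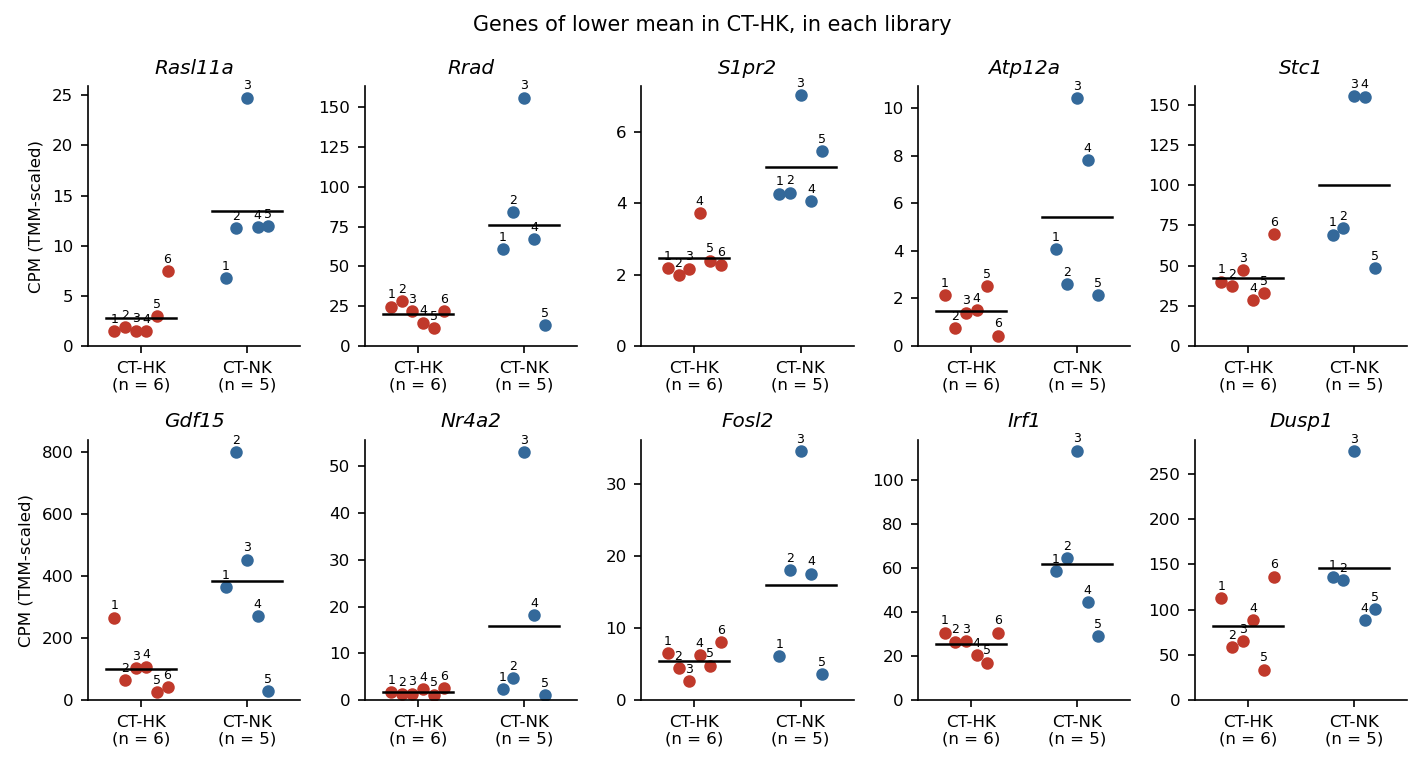
CPM of 10 genes of lower mean in CT-HK in each library, with CT-HK (n = 6, red) left of CT-NK (n = 5, blue), replicate numbers beside the points and lines at group means; each axis starts at 0. S1pr2 is the 1 gene of the 10 without overlap in CPM, and CT-NK replicate 3 is the highest library for Rasl11a, Rrad, S1pr2, Atp12a, Nr4a2, Fosl2, Irf1 and Dusp1.

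Marker lists of other cell types also differed in mean between the groups. The 25 proximal tubule markers had 6 members above 0 and 19 below, with a median log2 fold change of -0.23, and without the 2 proximal tubule-rich libraries that median was -2.63, with all 25 below 0. Thick ascending limb markers had 9 of 10 above 0 with a median of 0.58 that turned to -0.12 with sample weights, and their sum was 835 to 2948 CPM in CT-HK (median 1352), against 1109.6, 502, 951, 817 and 2004 CPM in CT-NK. Kcnj1, described above, is among these markers. The endothelial list had 10 of 12 above 0, with a median of 0.24, and of 0.42 without the 2 proximal tubule-rich libraries. Fibroblast, pericyte and smooth muscle markers had 15 of 15 tested members below 0 with a median of -0.85 (12 of 15 and -0.62 without those 2 libraries), at a low summed level of 39.1 to 207 CPM in CT-HK (median 48.8), against 45.2, 56.2, 87.5, 77.8 and 469 CPM in CT-NK. Macrophage and leukocyte markers had 14 of 16 below 0 (median -0.24), podocyte markers 6 of 8 (median -0.19) and red blood cell markers 3 of 5 (median -0.17). Without those 2 libraries the red blood cell markers had 5 of 5 below 0 with a median of -1.86, the podocyte median was -0.029 and the thick ascending limb median 0.84. The part of these cells in the results above was not tested. Fits with proximal tubule and thick ascending limb markers as covariates called 0 genes. The fit without them also called 0, so that count cannot show the part of these cells.

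**Figure D5:**
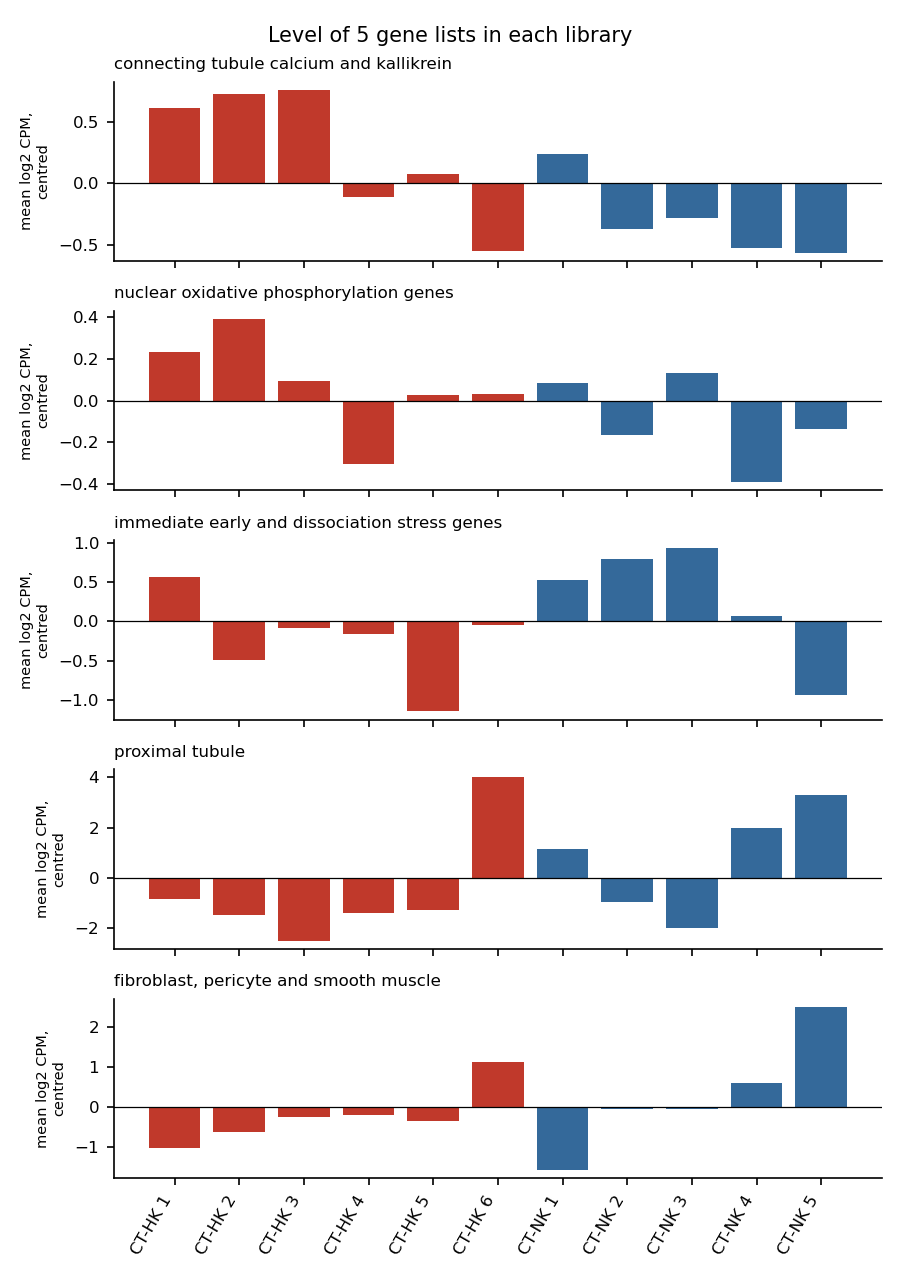
Mean log2 CPM of 5 gene lists in each library, centred gene by gene on the mean of the 11 libraries, with CT-HK (red) left of CT-NK (blue). Connecting tubule genes are highest in CT-HK replicates 1 to 3, immediate early genes in CT-NK replicates 1 to 3 and CT-HK replicate 1, and proximal tubule markers in CT-HK replicate 6 and CT-NK replicate 5.

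Whether the diet step in control tubules differed from the step in knockout tubules was tested as CT-HK minus CT-NK, less KO-NK minus KO-LK, on the log2 scale. These are different steps, from normal to high and from low to normal potassium, and they share no library. No gene passed the adjusted threshold (0%; 0 of 25829 in edgeR, smallest adjusted p 0.386), 974 had an unadjusted p under 0.05, and DESeq2 called 19. Sgk1 averaged 814 CPM in CT-HK and 608 in CT-NK, beside 129 in KO-NK and 46.1 in KO-LK, so its fold was larger in the knockout step, and the difference was -1.06 (SE 0.46), with an unadjusted p of 0.0285 and an adjusted p of 0.876. Trpv5 averaged 265 CPM in CT-HK and 148 in CT-NK, beside 236 in KO-NK and 359.8 in KO-LK, a difference of 1.45 (SE 0.42) with an adjusted p of 0.876. Fosl2 averaged 5.43 CPM in CT-HK and 16.0 in CT-NK, beside 28.4 in KO-NK and 15.7 in KO-LK, and the difference was -2.41 (SE 0.58). For Sertad1, a transcriptional coregulator chosen after its values were seen, the means were 22.95 CPM in CT-HK and 46.7 in CT-NK, beside 52.6 in KO-NK and 30.6 in KO-LK, with a difference of -1.81 (SE 0.35) and an adjusted p of 0.386. Several genes of lower mean in CT-HK had their highest levels in knockout tubules: Rasl11a averaged 2.80 CPM in CT-HK and 13.4 in CT-NK, beside 94.2 in KO-NK and 90.5 in KO-LK, and Atp12a 1.46 CPM in CT-HK and 5.42 in CT-NK, beside 34.6 in KO-NK and 32.3 in KO-LK. Conversely, Calb1 averaged 6184 CPM in CT-HK and 3579.7 in CT-NK, beside 1513 in KO-NK and 1069.9 in KO-LK, P2ry1 29.5 CPM in CT-HK and 17.0 in CT-NK, beside 5.38 in KO-NK and 3.62 in KO-LK and Fkbp11 28.5 CPM in CT-HK and 16.8 in CT-NK, beside 8.19 in KO-NK and 7.85 in KO-LK. The comparisons of CT-HK and of the knockout groups with CT-NK share the CT-NK libraries, so a high or low CT-NK mean enters both, and no likeness between them is read from these means.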

How the data were processed

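Full-length cDNA of microdissected tubules was made with the SMART-Seq HT kit and libraries with Nextera XT, per the labels' protocols. The submitters' processing notes name Salmon 0.14.10 and the build GRCm38.p6. Deposited per gene were expected counts from Salmon (35.9% of values not whole) and TPM, a length-scaled share of transcripts that the authors deposited with the same total in each library. All 54393 genes matched the GENCODE annotation of GRCm38.

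After rounding, the 23 libraries entered a single edgeR 4.0.16 model in R 4.3.3 with a mean for each of the groups, TMM factors, filterByExpr as the filter on low counts, 19 residual degrees of freedom, quasi-likelihood F tests and Benjamini-Hochberg adjustment at 0.05. CPM values are scaled by TMM and intervals are 95%. No library was left out, and each pair of libraries within CT-HK and CT-NK differed beyond sampling noise. Alternatives were DESeq2 1.42.0, its size factors, other filters, limma 3.58.1 on log2(TPM + 1) and log2(TPM + 0.1), covariates, sample weights, a length offset, a replicate block and leaving out libraries. The steps were tested on simulated counts.

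Members and the 32 gene lists were chosen with earlier results of these data known. Named genes are those past the threshold with a log2 fold change of at least 1 and 5 CPM (0 genes), up to 4 of smallest p per pathway list and a set of transport genes; genes called chosen after their values were seen fall outside that rule. Some genes that the rule names are not reported here, and list counts include them.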

Additional observations from a re-analysis of the deposited data

Results flagged for a closer look

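Single libraries that stood apart from the rest of their group by Dixon's criterion (the gap to the nearest library as a share of the group's range) were found in 20 of 178 groups of values examined, where chance alone gives about 5%. In CT-HK replicate 6, Nr3c1 was at 47.7 CPM, Rasl11a at 7.44 CPM and the proximal tubule marker sum at 37952 CPM, against 1111 CPM in the next library. In CT-HK replicate 4, the library with the most receptor counts, Kcnma1 was at 5.25 CPM, Kcnj16 at 261 CPM, Avpr1a at 30.2 CPM, S1pr2 at 3.73 CPM and Nr4a3 at 1.91 CPM. CT-HK replicate 1 held 59.8 CPM of Gadd45b and 266 CPM of Gdf15, and CT-HK replicate 2 held 213 CPM of Fxyd4.

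In CT-NK, replicate 1 stood apart for 3 genes of the distal nephron, with 257 CPM of Wnk4, 282 CPM of Trpv5 and 701 CPM of Vdr. CT-NK replicate 3 stood apart for genes of rapid induction and stress, with 275 CPM of Dusp1, 486 CPM of Nfkbia, 13.4 CPM of Trib3, 44.0 CPM of Nupr1 and 24.8 CPM of Rasl11a. CT-NK replicate 5 held 601 CPM of Slc12a3, against 29.6 CPM in the next CT-NK library. The part of dissection, handling and diet in these single values was not tested.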

How the results depend on the processing

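The count of called genes was 0 in edgeR and stayed 0 with DESeq2 size factors, no filter, limma on log2(TPM + 1) with and without a filter, each set of covariates, a robust fit, a length offset, sample weights, a 1.2-fold threshold, only the 11 control libraries and without the libraries above 2500 CPM on receptor genes. It was 20 with DESeq2, 1 with at least 5 CPM in 5 libraries (Ankrd10), 1 with limma on log2(TPM + 0.1) (Rasl11a) and 2 without the 2 libraries richest in proximal tubule markers (Rasl11a and Rrad). At an unadjusted p under 0.05, the fit with sample weights (limma voom) had 3456 higher and 2033 lower genes, against 570 and 357 in edgeR. Its count of 0 therefore does not mean that its values were alike. Leaving out single libraries gave 0 to 169 calls. The 169 came without CT-HK replicate 6, and 150 of them had their highest value of the 11 control libraries in that replicate. Without CT-NK replicate 5 there was 1 call, Rrad. For the difference of diet effects, DESeq2 gave 19 calls, the fit without the 2 proximal tubule-rich libraries 46, and single omissions 0 to 214, with 214 without CT-HK replicate 6 and 5 without CT-NK replicate 5. Chosen after seeing the data, DESeq2 on only the 11 control libraries called 5 genes, DESeq2 without the 2 proximal tubule-rich libraries 223 (and 317 for the difference of diet effects), and edgeR on the other 9 control libraries 0.

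With the replicate number as a block, 0 genes were called in either comparison, and 0 when only the 11 control libraries were fitted with the replicate block, where 1040 higher and 964 lower genes had an unadjusted p under 0.05, against 561 and 411 without the block. Whether the numbers pair the samples is mixed: deviations of same-numbered libraries correlated at 0.34, -0.051, 0.58, 0.50 and -0.15 over 11386 genes, and 3 of 10 libraries correlated best with their own number, so they were not treated as paired.

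Among named genes, 59 of 2800 alternative values passed the threshold in the same direction, and 5 reversed: Per1 to 0.051 and Aqp6 to 0.15 with covariates for intercalated cell markers, and Per1 to 0.15, Dmrt2 to 0.018 and Aqp6 to 0.25 with sample weights. A change of sign counted as a reversal only where the log2 fold change exceeded its SE, and 112 values nearer to 0 changed sign. The causes were not tested. Depth limits what can be said of genes near 1 CPM, such as Kcnma1 and Edn1.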

Other observations

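Several lists held few genes of small p. Of 18 cholesterol synthesis genes 12 had a log2 fold change below 0, with a median of -0.076 that turned to 0.038 with sample weights, and Insig1, which restrains sterol synthesis, was the 1 member with an unadjusted p under 0.05, at -0.64. Of 26 cell cycle genes 16 were below 0 (median -0.13), and 9 of 16 interferon response genes were below 0 (median -0.13). Of 16 tubule injury genes 14 were tested, 8 of them below 0 (median -0.13), with Sox9, a transcription factor of injured tubules, at -1.04. Osmotic response genes had 6 of 10 above 0 (median 0.16, turning to -0.11 with limma on log2(TPM + 1)). Distal convoluted tubule markers with an unadjusted p under 0.05 were, besides Wnk4, Klhl3 and Sgms2, the magnesium genes Trpm6 at 0.79 and Cnnm2 at 0.64. None of these genes had an adjusted p under 0.05 in edgeR, and no reading is attached to them.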
